A study of Mus musculus with 4 samples.

Results

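Retinoic acid synthesis and response was followed through 8 genes in single-cell RNA sequencing of the mouse embryonic heart: *Aldh1a1*, *Aldh1a2*, *Rara*, *Rarb*, *Rxra*, *Cyp26b1*, *Crabp2* and *Dhrs3*. They were chosen by symbol, and all 8 were found among the 32285 genes of the deposited matrices. The study removed *Ets1*, which encodes an ETS family transcription factor, from endothelial cells and asked how the ventricle wall changed. The control group was *Tie2Cre*; *Ets1* fl/+ and the knockout group, called *Ets1* eKO, was *Tie2Cre*; *Ets1* fl/fl, so the controls also carried Cre and 1 floxed allele. Each group had 2 libraries, and each library pooled the ventricles of 3 embryos at embryonic day 14.5, untreated, on a C57BL/6 background, of both sexes and not typed for sex. *Tie2Cre* is driven by a promoter of endothelial and endocardial cells that is also active in blood-forming cells, and endocardial cells give rise to much of the cushion mesenchyme, so a Cre of this kind is not confined to the vessels. All libraries carried the same batch label.

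Retinoic acid is made from vitamin A in a pair of oxidations, retinol to retinal and retinal to retinoic acid, and acts on neighbouring cells. It enters the nucleus, where receptor pairs of an RAR and an RXR sit on DNA, and it is removed by enzymes of the CYP26 family. In the developing heart the epicardium, the outer sheet of the organ, is a known source of it, and too much or too little disturbs the growth of the ventricle wall.

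The 4 libraries held between 7949 and 14951 cell barcodes and between 76931208 and 124140739 UMIs, where a UMI is 1 counted transcript molecule. After limits on cell quality and the removal of likely doublets, between 6816 and 12316 cells were kept, with a median of 8259 to 8737 UMIs in 3 libraries and 5313 in *Ets1* eKO replicate 2, the shallowest. Pairs of libraries shared between 0.239% and 0.44% of the barcodes of the smaller one. Cells were clustered and named after marker lists, with the ending "-like": 15976 cardiomyocyte-like, 4585 mural endocardium-like (the lining of the chamber wall), 4481 cushion mesenchyme-like (the valve primordia), 2610 fibroblast-like, 1471 coronary endothelium-like, 1213 valve endocardium-like, 921 epicardium-like, 729 immune-like and 255 mural cell-like (pericytes and smooth muscle). *Ets1* was lower in *Ets1* eKO in mural endocardium-like (log2 change −1.32, SE 0.15, edgeR adjusted p = 0.000383), valve endocardium-like (−1.31, adjusted p = 0.00309) and coronary endothelium-like cells (−1.09, adjusted p = 0.0183), and still stood at 92.9 and 120 UMIs in 1000000 (CPM) in the mural endocardium-like cells of the 2 *Ets1* eKO libraries. *Ets1* was not called in the other classes tested. In cushion mesenchyme-like cells the controls held 83 and 74.5 CPM and the *Ets1* eKO libraries 46.1 and 38.8 CPM. The difference there was −0.81 (SE 0.14, edgeR adjusted p = 0.0586), which passed in 5 of 11 alternatives. It was −0.50 in fibroblast-like (adjusted p = 0.393), +0.38 in epicardium-like (adjusted p = 0.885) and +0.68 in cardiomyocyte-like cells (adjusted p = 0.402). The sources used here do not say which exons are floxed, so a 3′ tag outside the deleted part would not show the loss.

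*Rarb* was the member on which a promoter sequence bears, because it is a textbook target of the receptor pair it belongs to. Windows from 250 bases before to 50 bases after each RefSeq start (GRCm38.p6) were searched on both strands for direct repeats of a hexamer spelled AGGTCA or AGTTCA or GGGTCA or GGTTCA. With a spacer of 5 bases (DR5), the repeat was found in 1 of the 14 windows of the 7 members that had one, and in 0.0974% of all 32851 windows. With spacers of 1 and 2 bases it was found in no member window, against 0.222% and 0.268% of all windows. The match lay at chr14:16575513-16575529 on the minus strand, 53 to 37 bases upstream of a *Rarb* start that lies inside the gene (chr14:16430839-16819156, minus strand). The 250 bases upstream of that start are given 5′ to 3′, with the matching letters in capitals.
Rarb, chr14:16575477-16575726, minus strand, GRCm38.p6: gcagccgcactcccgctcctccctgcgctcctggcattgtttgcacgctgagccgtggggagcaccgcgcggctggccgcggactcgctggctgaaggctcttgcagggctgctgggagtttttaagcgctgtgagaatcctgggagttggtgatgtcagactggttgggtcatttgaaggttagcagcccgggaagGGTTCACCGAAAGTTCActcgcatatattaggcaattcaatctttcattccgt
The capitals mark a match of letters in a reference window and no binding was measured here.

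Levels are UMIs of a gene per 1000000 UMIs of the same cell class and library (CPM), given in the order control replicate 1, control replicate 2, *Ets1* eKO replicate 1, *Ets1* eKO replicate 2. They were compared between classes and libraries for 1 gene at a time, never between genes. Because the classes came from clustering the same cells, levels across classes are a description with no test. Differences between *Ets1* eKO and control were tested in each of 7 classes over all genes with edgeR on the summed UMIs, and called at a Benjamini-Hochberg adjusted p under 0.05. An exact permutation test of 1 value on 2 against 2 libraries cannot go below p = 0.3333, so tests of single values were left to the fit over all genes. Cells are not replicates, and with 2 pools a group the spread is that between pools.

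Both synthesis genes had their highest level in the epicardium-like cells. *Aldh1a2*, the retinal dehydrogenase that makes most retinoic acid in the embryo, stood at 497, 391, 316 and 391 CPM there, a mean of 399 ± 74.4 (SD, n = 4). The highest value came from a control library and the lowest from an *Ets1* eKO library, and the groups overlapped. Fibroblast-like cells followed at 28, 29.2, 36.7 and 35.8 CPM and mural cell-like cells at 37.2, 12.6, 33.4 and 35.7 CPM. These neighbours overlapped each other and both lay apart from the epicardium-like range. In the other 6 classes the mean was at most 1.68 CPM. Of all *Aldh1a2* UMIs in the 9 classes, 71.4% came from epicardium-like cells and 22.7% from fibroblast-like cells.

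The share of cells with an *Aldh1a2* UMI was also given at equal depth. Thinned to 2000 UMIs per cell, it was 56.3% (exact Clopper-Pearson 95% interval 48–64.3), 39.4% (31–48.3), 43.4% (37.2–49.8) and 49.3% (43.5–55.2) of epicardium-like cells in the 4 libraries. Between 7 and 41 shallower cells a library were left out, and the median depth before thinning was 7134, 7489, 6904 and 4267 UMIs. All UMIs gave 87%, 75.5%, 70.3% and 69%. Mural endocardium-like cells, which should lack the gene, gave 0% in every library, with up to 0.306%, 0.44%, 0.321% and 0.165% allowed by a count of 0, at median depths of 6948, 7538, 7075 and 4378 UMIs. Intervals and limits cover counting error only.

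**Figure D1:**
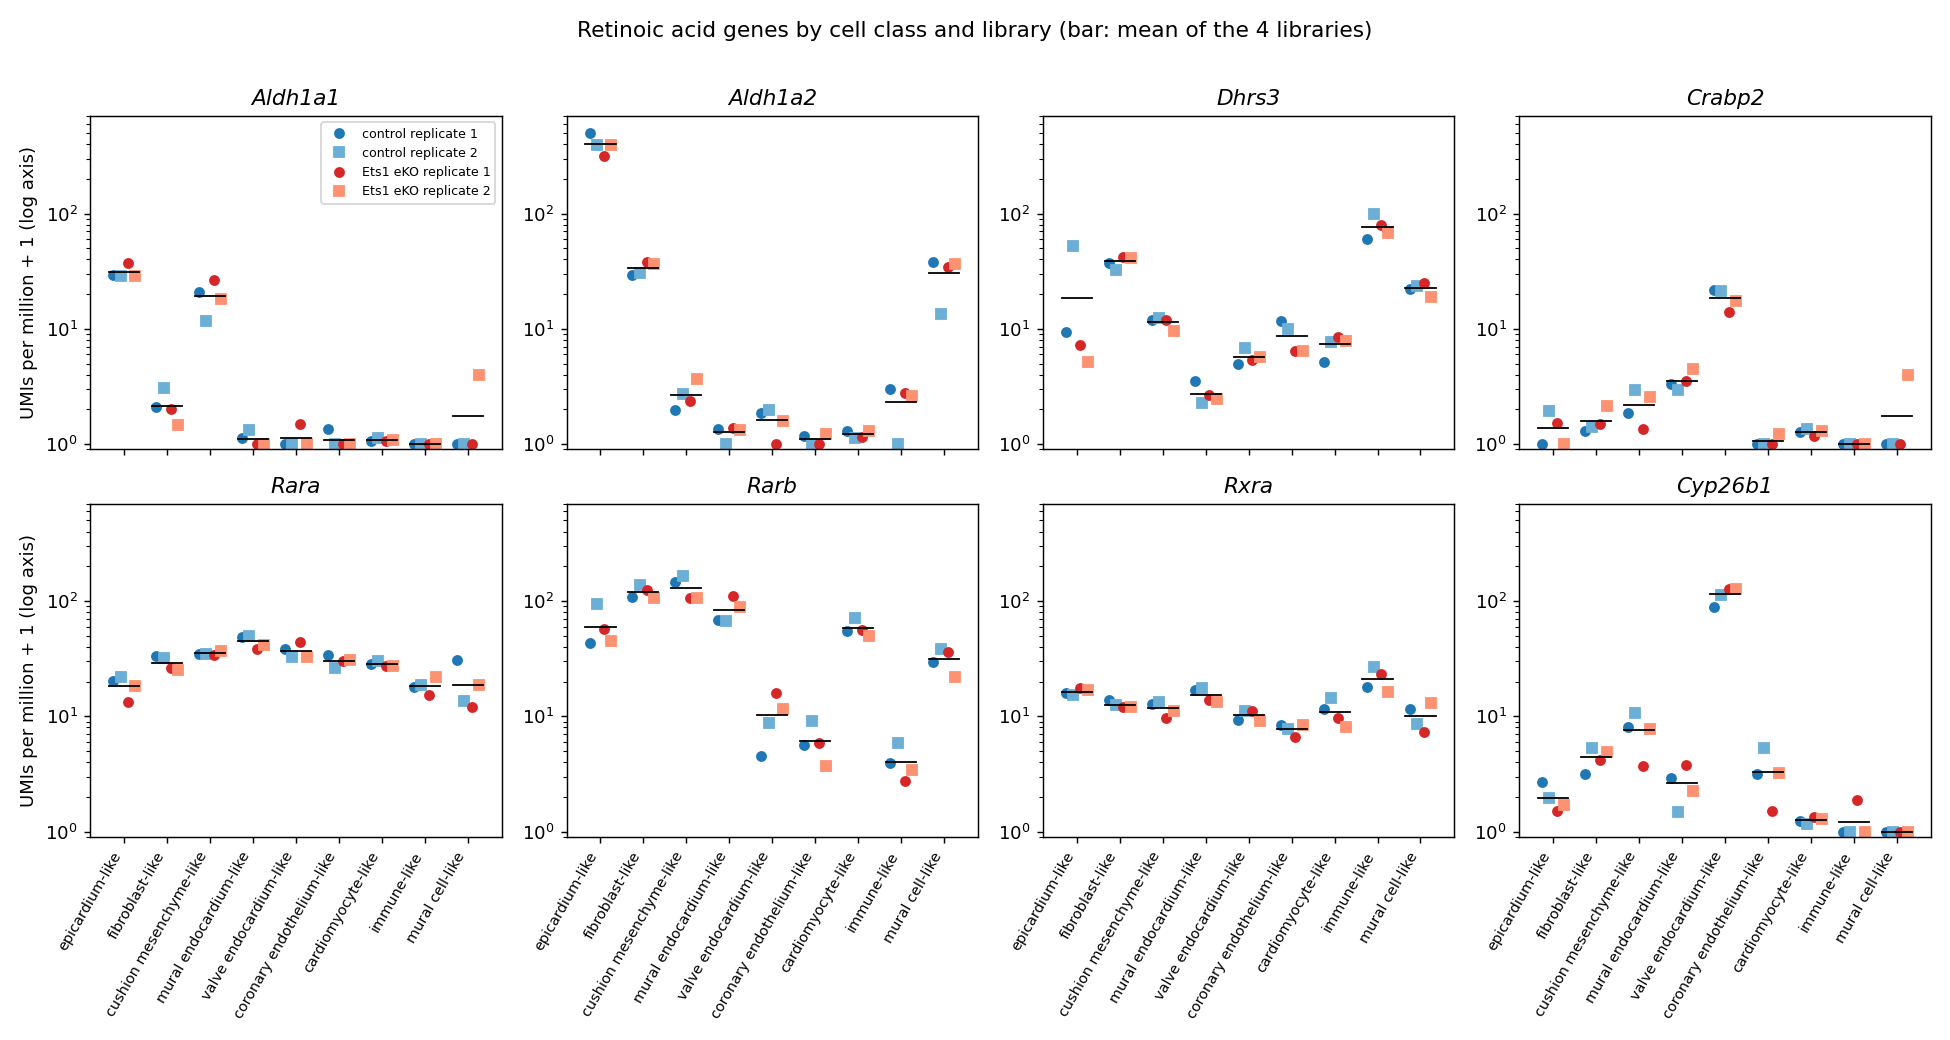
Level of each of the 8 genes (CPM of the class plus 1, logarithmic axis) in 9 cell classes, with 1 point per library, controls in blue, Ets1 eKO in red and a bar at the mean of the 4. Aldh1a2 was highest in epicardium-like cells (mean 399), Cyp26b1 in valve endocardium-like cells (mean 114) and Dhrs3 in immune-like cells (mean 75.8), whereas Rara and Rxra lay in narrow bands across classes.

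*Aldh1a1*, a retinal dehydrogenase that also serves general aldehyde removal, was found in epicardium-like and cushion mesenchyme-like cells. It stood at 28.4, 27.6, 36.5 and 27.5 CPM in the former and 20, 10.6, 25.3 and 17 CPM in the latter, and these ranges did not overlap. Of all *Aldh1a1* UMIs in the 9 classes, 68.5% came from the more numerous cushion mesenchyme-like cells and 24.7% from epicardium-like cells. Fibroblast-like cells held a mean of 1.16 CPM and the remaining 6 classes at most 0.745 CPM, which for the mural cell-like class rested on 1 UMI. Within the cushion mesenchyme-like cells the highest cluster held 28.7, 22.3, 36.4 and 24.9 CPM and the lowest 11.4, 4.71, 14.4 and 9.44 CPM. Epicardium-like cells with an *Aldh1a2* UMI also had an *Aldh1a1* UMI in 11.7% to 17.9% of cases, against 7.69% to 14.3% of those without, and the cells with *Aldh1a2* were also deeper in every library (medians of 4492 to 7925 against 3167 to 5036 UMIs).

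Neither dehydrogenase was called in any class. In epicardium-like cells 6 members passed the filter on low counts, *Cyp26b1* and *Crabp2* did not, and edgeR called 0 of the 6, against 0.0293% of all 10230 genes tested. An unadjusted p under 0.05 was reached by 1 member and by 604 genes, which is 5.9%, and DESeq2 called 0 genes. The *Aldh1a2* difference there was −0.26 on the log2 scale (SE 0.19, edgeR adjusted p = 0.861), and that of *Aldh1a1* +0.28 (SE 0.26, adjusted p = 0.893). In cushion mesenchyme-like cells, which held most *Aldh1a1* UMIs, the *Aldh1a1* difference was +0.56 (SE 0.3, adjusted p = 0.491), and 1 of 11 alternatives brought it past the threshold (+1.09, adjusted p = 0.00303, without control replicate 1). *Aldh1a2*, with 8 to 15 UMIs a library in that class, differed by +0.62 (SE 0.53, adjusted p = 0.664). In fibroblast-like cells 6 members were tested, *Aldh1a1* and *Crabp2* were not, and 0 were called, where edgeR called 0% of 12681 genes. There 2 members and 942 genes (7.43%) reached an unadjusted p under 0.05, and DESeq2 called 3 genes and 0 members. *Aldh1a2* was higher in both *Ets1* eKO libraries than in both controls in the fibroblast-like cells, by +0.43 (SE 0.15, adjusted p = 0.581), a separation that 11.1% of all genes showed in that direction. The difference between its change in epicardium-like and in fibroblast-like cells was −0.7 (SE 0.17, adjusted p = 0.112), and 2 of 10 alternatives brought it past the threshold, no filter on low counts and leaving out control replicate 2. Of the members, 0 of 7 tested were called in that comparison of changes, against 0.0782% of 12786 genes, with 2 members and 6.16% of genes at an unadjusted p under 0.05.

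*Dhrs3*, which reduces retinal back to retinol and so draws on the substrate of the dehydrogenases, had a different distribution. Its highest level was in immune-like cells at 59.4, 98.8, 77.9 and 67.1 CPM, followed by fibroblast-like cells at 36.6, 31.3, 41.4 and 40.4 CPM and mural cell-like cells at 21.3, 22.6, 23.9 and 17.9 CPM. These 3 ranges lay apart from each other, whereas the next classes overlapped their neighbours down to valve endocardium-like cells at a mean of 4.69 CPM, and mural endocardium-like cells were lowest at 1.74 CPM. Among the fibroblast-like clusters, 1 cluster of 624 cells held 125, 96, 93.3 and 98.9 CPM, and the other 3 held at most 39.3 CPM in any library.

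In the epicardium-like cells *Dhrs3* rested on 1 library. The level was 8.34 CPM in control replicate 1, 51.4 in control replicate 2, and 6.18 and 4.12 in the *Ets1* eKO libraries, from 10, 54, 12 and 6 UMIs. In control replicate 2 the 54 UMIs came from 22 of 139 cells, with up to 9 in a single cell. The fitted difference was −2.36 (SE 0.6, edgeR adjusted p = 0.392). Without control replicate 2 it was −0.6, and 5 of 11 alternatives brought it past the threshold, all of them with that library in the fit. The change in epicardium-like cells differed from that in fibroblast-like cells by −2.67 (SE 0.56, adjusted p = 0.0545), which passed in 5 of 10 alternatives and ran from −3.67 without control replicate 1 to −0.81 without control replicate 2. In coronary endothelium-like cells *Dhrs3* was at 10.7, 9.01, 5.38 and 5.36 CPM, below both controls in both *Ets1* eKO libraries as were 32.1% of all genes, with a difference of −0.8 (SE 0.27, adjusted p = 0.248). In fibroblast-like cells the difference was +0.35 (SE 0.15, adjusted p = 0.668).

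*Crabp2*, the carrier that brings retinoic acid to the nuclear receptors, lay below 20 CPM on average in every class. Valve endocardium-like cells held 20.5, 20.3, 13.1 and 16.3 CPM, apart from the next class, mural endocardium-like cells, at 2.3, 1.94, 2.55 and 3.44 CPM. Both *Ets1* eKO libraries were below both controls in the valve class, as for 23% of all genes there, and above both in the mural class, as for 20.7%. The differences were −0.45 (SE 0.27, edgeR adjusted p = 0.599) and +0.56 (SE 0.37, adjusted p = 0.384). The test of the difference between them gave +0.98 (SE 0.44, unadjusted p = 0.036, adjusted p = 0.318), which did not pass.

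The receptors differed in how widely they were found. *Rara*, a receptor known for broad expression, had class means between 17.4 and 43.6 CPM, highest in mural endocardium-like cells (47.5, 48.9, 37.2 and 40.7 CPM) and lowest in immune-like and epicardium-like cells. Each class in this order overlapped the next. *Rxra*, one of the RXRs that pair with the RARs, had class means between 6.83 CPM in coronary endothelium-like cells and 20 CPM in immune-like cells, again with every class overlapping the next. The *Rara* difference in mural endocardium-like cells was −0.24 (SE 0.14, edgeR adjusted p = 0.326) and that of *Rxra* −0.31 (SE 0.18, adjusted p = 0.33).

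In cardiomyocyte-like cells 7 members were tested, *Aldh1a1* was not, and edgeR called 0 of them, where it called 0% of 15940 genes. There 2 members and 1963 genes (12.3%) reached an unadjusted p under 0.05, and DESeq2 called 42 genes and 0 members. *Rxra* stood at 10.5, 13.4, 8.61 and 7.09 CPM there, both *Ets1* eKO libraries below both controls (38.4% of all genes were). Its difference was −0.49 (SE 0.15, edgeR adjusted p = 0.402), which passed in 1 of 11 alternatives. The groups of 4 members did not overlap in this class, in a background of 49.7% of all genes. *Dhrs3* was at 4.17, 6.75, 7.52 and 6.87 CPM, with a difference of +0.54 (SE 0.21, adjusted p = 0.402), and *Rarb* at 53.8, 70.1, 54.7 and 48.6 CPM, with −0.14 (SE 0.13, adjusted p = 0.619).

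*Rarb* varied far more between classes than the other receptors. Cushion mesenchyme-like cells held 145, 164, 105 and 105 CPM, fibroblast-like cells 108, 137, 125 and 104, and mural endocardium-like cells 67.8, 65.8, 109 and 87.5. Epicardium-like cells (42.5, 93.3, 56.1 and 43.9 CPM) and cardiomyocyte-like cells followed, and each of these 5 classes overlapped the next. Mural cell-like cells, at a mean of 30.6 CPM, lay apart from their neighbours on both sides. Valve endocardium-like, coronary endothelium-like and immune-like cells were lowest at means of 9.18, 5.06 and 3 CPM. The lining cells were thus unequal in *Rarb*: 82.5 ± 20.1 CPM (SD, n = 4) in the mural class, against library values of 3.49 to 15 CPM in the valve class and 2.68 to 8.08 CPM in the coronary class.

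*Rarb* was the only member called in any class, and it was higher in *Ets1* eKO in the mural endocardium-like cells. The mean was 66.8 CPM in the controls and 98.2 CPM in *Ets1* eKO, with both *Ets1* eKO libraries above both controls, a separation that 20.7% of all genes showed in that direction, from 561, 407, 853 and 839 UMIs. The log2 difference was +0.61 (SE 0.14, edgeR adjusted p = 0.0288). In this class 6 members were tested, *Aldh1a1* and *Aldh1a2* were not, and the test called 1 of them, against 5.14% of 12990 genes in either direction and 2.5% in the higher direction (325 genes higher and 343 lower, but 214 and 457 with total count scaling), with 1 member and 23.6% of genes at an unadjusted p under 0.05. The groups of 4 of the 6 members did not overlap, against 54.7% of all genes. DESeq2 also called *Rarb* here (adjusted p = 0.0204), and 4.57% of 11479 genes of the class. It called none of the members tested in the other 6 classes. Under 11 alternatives the difference was positive in each, and 9 passed the threshold. It did not pass without control replicate 1 (+0.62, adjusted p = 0.143) or without control replicate 2 (+0.63, adjusted p = 0.0925), fits in which the lone control library is assumed to vary like the *Ets1* eKO libraries.

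The separation held in each of the 5 clusters that made up the mural endocardium-like class, which were read one by one after the difference had been seen and without a test. The *Rarb* level was 31.6, 11.1, 52.4 and 42.2 CPM in the cluster where it was lowest and 92.5, 94.5, 154 and 119 CPM in the one where it was highest. The other 3 clusters held 54.2, 67.3, 118 and 90.7 CPM, 63.2, 75.1, 116 and 89.1 CPM, and 52.8, 38.6, 74.5 and 74.4 CPM. In all 5 both *Ets1* eKO libraries were above both controls. These clusters were made after integration across libraries, and without it the cells of the 2 groups fell largely into different clusters. Of the 5 mural endocardium-like clusters then found, 1 held 648, 416, 38 and 29 cells of the 4 libraries and another 58, 51, 419 and 603, so the clusters with integration do not show that like cells were compared. *Rarb* was at 77.9, 84.9, 196 and 139 CPM in the former and 52.6, 52.6, 141 and 119 CPM in the latter. The *Ets1* eKO values were above the control values in these and in the other 3, of which 1 held only 13 cells and 6 *Rarb* UMIs in control replicate 2. For the class without integration the difference was +0.61 (edgeR adjusted p = 0.0355).

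**Figure D2:**
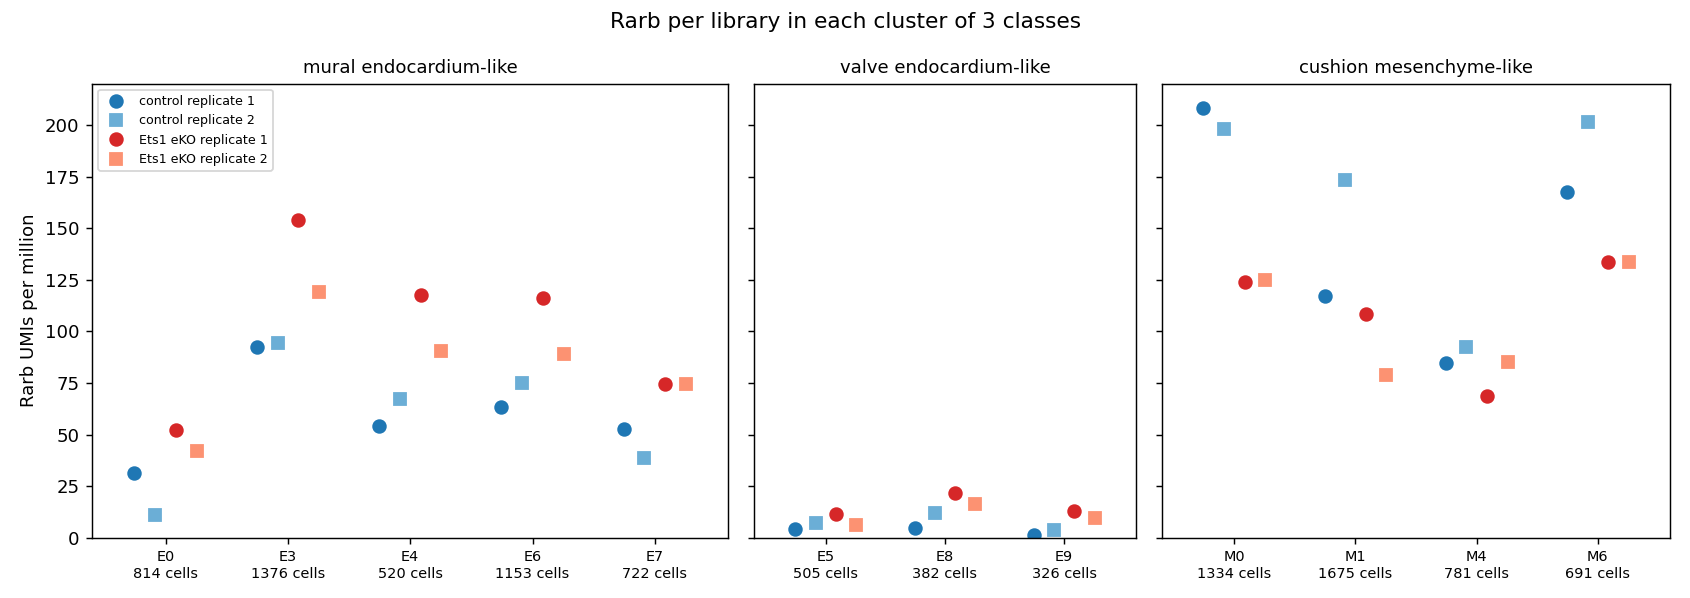
Rarb level (CPM of the cluster, linear axis) in each cluster of the mural endocardium-like, valve endocardium-like and cushion mesenchyme-like classes, with 1 point per library and the number of cells under each cluster. In the 5 mural endocardium-like clusters the Ets1 eKO points are above the control points (154 and 119 against 92.5 and 94.5 in the highest), and they are below in 3 of the 4 cushion mesenchyme-like clusters.

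The share of mural endocardium-like cells with a *Rarb* UMI followed the level once depth was made equal. Thinned to 2000 UMIs it was 12% (9.98–14.1), 11.3% (9.01–13.9), 19.1% (16.7–21.8) and 15.3% (13.7–17.1), over 979, 682, 936 and 1814 cells, with 31, 8, 13 and 122 cells too shallow. Without thinning it was 33.7%, 35.2%, 46.5% and 29.6%, where *Ets1* eKO replicate 2 was lowest and also shallowest, with a median of 4223 UMIs against 6880 to 7519. Immune-like cells, taken as a class without the gene, gave 0%, 1.25%, 0% and 0% after thinning at median depths of 6468, 7109, 6308 and 3997 UMIs, and a count of 0 allowed up to 2.08%, 1.81% and 1.15% in the libraries at 0.

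**Figure D3:**
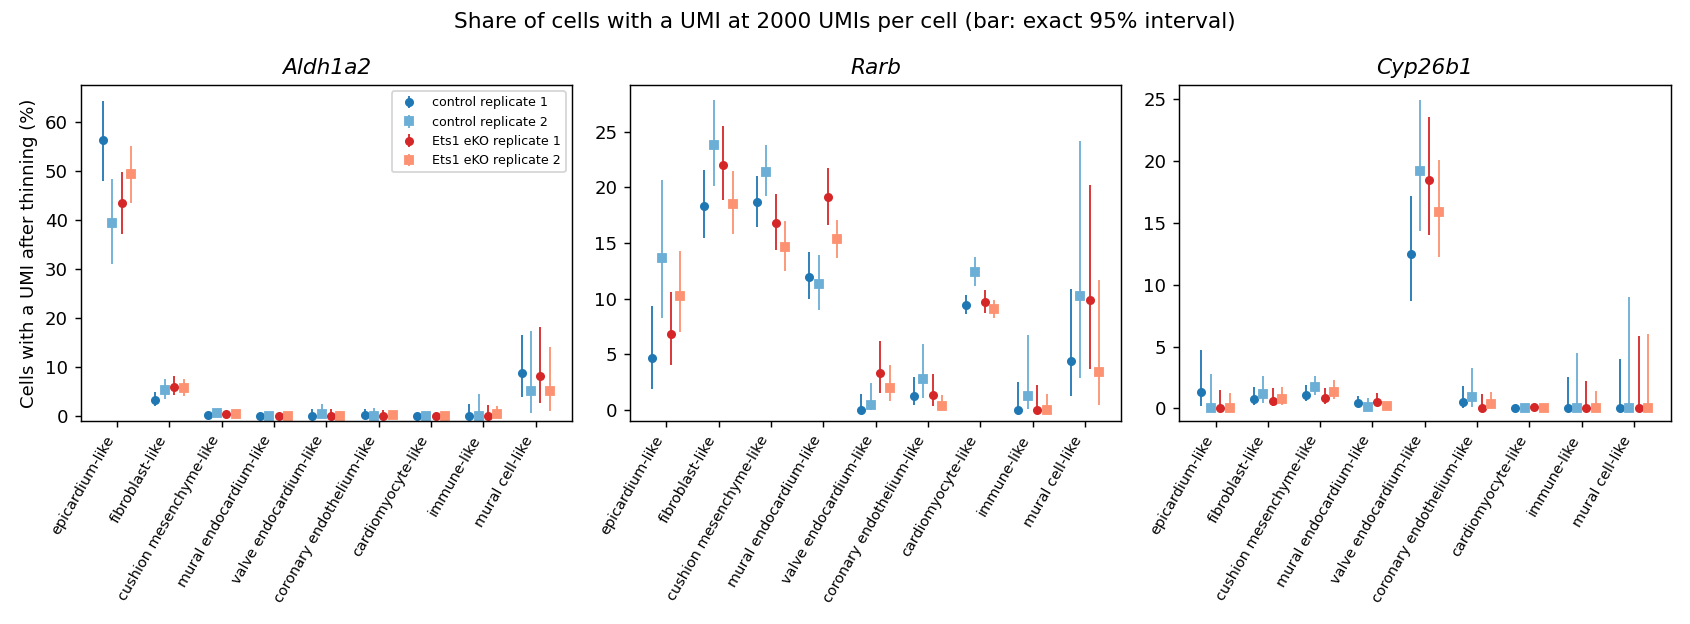
Share of cells with at least 1 UMI (percent, exact 95% binomial intervals for counting error) after thinning each cell to 2000 UMIs, for Aldh1a2, Rarb and Cyp26b1 in 9 cell classes, with 1 point per library. Rarb was found in 19.1% and 15.3% of mural endocardium-like cells of the Ets1 eKO libraries, against 12% and 11.3% in the controls.

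Of 13 marker lists, 9 had sums that did not overlap between the groups in the same cells. The summed level of the 8 fibroblast markers in mural endocardium-like cells was 72.2 to 89.8 CPM in the controls and 193 to 231 in *Ets1* eKO, against 1576 to 2075 in fibroblast-like cells. Most of that came from *Lum* (10.6, 6.47, 69.8 and 55.9 CPM), *Dcn* (9.19, 8.41, 39.7 and 35.4) and *Col14a1* (66.6, 54.5, 117 and 94.5), genes of the extracellular matrix. All 3 were called higher in *Ets1* eKO by edgeR, with log2 differences of +2.91, +2.15 and +0.86 and adjusted p of 1.4e-05, 3.81e-05 and 0.00634. *Kcnk2*, of the same list, stood at 2.05, 2.1, 3.57 and 5.63 CPM (+1.23, adjusted p = 0.0737). The other 4 of the list, *Tcf21*, *Dpt*, *Abca8a* and *Ogn*, reached at most 1.15 CPM in any library. The 8 mesenchyme markers summed to 485 to 542 CPM and 789 to 854 CPM, the 8 cardiomyocyte markers to 564 to 964 and 1030 to 1288, the 8 erythroid markers to 82.5 to 221 and 222 to 279, and the class's own 8 markers to 3562 to 3691 and 2679 to 3118. The coronary endothelium list went from 74.3 to 107 in the controls to 171 to 181 in *Ets1* eKO, and the cushion mesenchyme list, of the class with the highest *Rarb* level, from 61 to 64.6 to 76.6 to 81.5. The valve endocardium list (307 to 319 and 293 to 305) and the Schwann and neuron list (24.8 to 33.5 and 13.4 to 17.7) were lower. The part of these in the *Rarb* difference was not tested.

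In the other lining cells the *Rarb* difference was not called. Valve endocardium-like cells held 3.49, 7.75, 15 and 10.5 CPM from 8, 16, 31 and 18 UMIs, both *Ets1* eKO libraries above both controls as for 17.7% of all genes, with a difference of +1.24 (SE 0.42, edgeR adjusted p = 0.293). In that class 5 members were tested, *Aldh1a1*, *Aldh1a2* and *Dhrs3* were not, and 0 were called, against 0.375% of 10944 genes, with 2 members and 10.6% of genes at an unadjusted p under 0.05, and DESeq2 called 0 members and 0.311% of genes. Coronary endothelium-like cells held 4.62, 8.08, 4.87 and 2.68 CPM, overlapping, with −0.61 (SE 0.41, adjusted p = 0.54), a direction that turned to +0.31 when no doublets were removed and +0.49 when cells were gated one by one. There 4 members were tested, *Aldh1a1*, *Aldh1a2*, *Cyp26b1* and *Crabp2* were not, and 0 were called, against 0.806% of 11294 genes, with 1 member and 13.9% of genes at an unadjusted p under 0.05. With no doublets removed the coronary class held 2368 cells in place of 1471. Of these, 855 were a cluster at a median of 14362 UMIs, whose leading genes began with *Wnt4*, *Kcnc2* and *Emcn*. The mural change differed from the coronary change by +1.22 (SE 0.34, adjusted p = 0.0516), which passed in 3 of 10 alternatives and ran from +0.19 with cells gated one by one to +1.66 without control replicate 1, and from the valve change by −0.63 (SE 0.36, adjusted p = 0.476). Of 6 members tested in each comparison 0 were called, against 2.41% of 12977 and 2.09% of 12819 genes, with 1 member in each and 13.5% and 13.7% of genes at an unadjusted p under 0.05. DESeq2 called 0 members in both, against 0.954% of 6184 and 0.873% of 8594 genes, fewer genes than edgeR tested.

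In cushion mesenchyme-like cells *Rarb* lay the other way, below both controls in both *Ets1* eKO libraries, as were 31.3% of all genes. The means were 155 CPM in the controls and 105 in *Ets1* eKO, and the difference was −0.48 (SE 0.12, edgeR unadjusted p = 0.0034, adjusted p = 0.145), which did not pass. It kept its direction in all 11 alternatives and passed in 1. Some marker lists of other cell types also lay apart in this class, in both directions. The mural cell list summed to 867 to 926 CPM in the controls and 678 to 775 in *Ets1* eKO. For the Schwann and neuron list the sums were 63.3 to 65.5 and 79.8 to 81.3 CPM. The part of these lists in the *Rarb* difference was not tested. All 8 members were tested and 0 were called, against 0.371% of 13485 genes, with 1 member and 12.3% of genes at an unadjusted p under 0.05. By cluster the level was 208, 198, 124 and 125 CPM, 117, 173, 109 and 78.6 CPM, 167, 202, 134 and 134 CPM, and, in the cluster whose groups overlapped, 84.5, 92.5, 68.7 and 85.1 CPM. The second of these held 653 cells of control replicate 2 and 245 to 441 of the other libraries. Without integration the groups again fell unevenly into clusters. A cluster of 440, 663, 121 and 83 cells had overlapping levels of 108, 132, 114 and 123 CPM, 3 clusters had both *Ets1* eKO libraries below both controls, and 1 cluster held 26, 73, 2 and 0 cells, with 253 *Rarb* UMIs in those of control replicate 2. The mural change was higher than the cushion change by +1.13 (SE 0.13, adjusted p = 0.000108), a comparison added after both directions had been seen. Of the 8 members 1 was called in it, against 2.46% of 14524 genes. An unadjusted p under 0.05 was reached by 2 of the 8 members, 9 of 35 pathway genes and 13.5% of all genes, and the *Rarb* difference passed in all 10 alternatives (0.9 to 1.26). Of 35 pathway genes tested in that comparison 3 were called, *Rarb*, *Meis1* and *Nr2f2*. *Meis1*, a homeobox gene, had a mural change higher than the cushion change by +0.74 (edgeR adjusted p = 0.0123), and *Nr2f2*, an orphan nuclear receptor that responds to retinoic acid, one that was lower, at −0.81 (adjusted p = 0.0169). DESeq2 called neither (adjusted p = 0.205 and 0.0735), and without *Ets1* eKO replicate 2 that of *Nr2f2* did not pass (−0.51, adjusted p = 0.317).

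**Figure D4:**
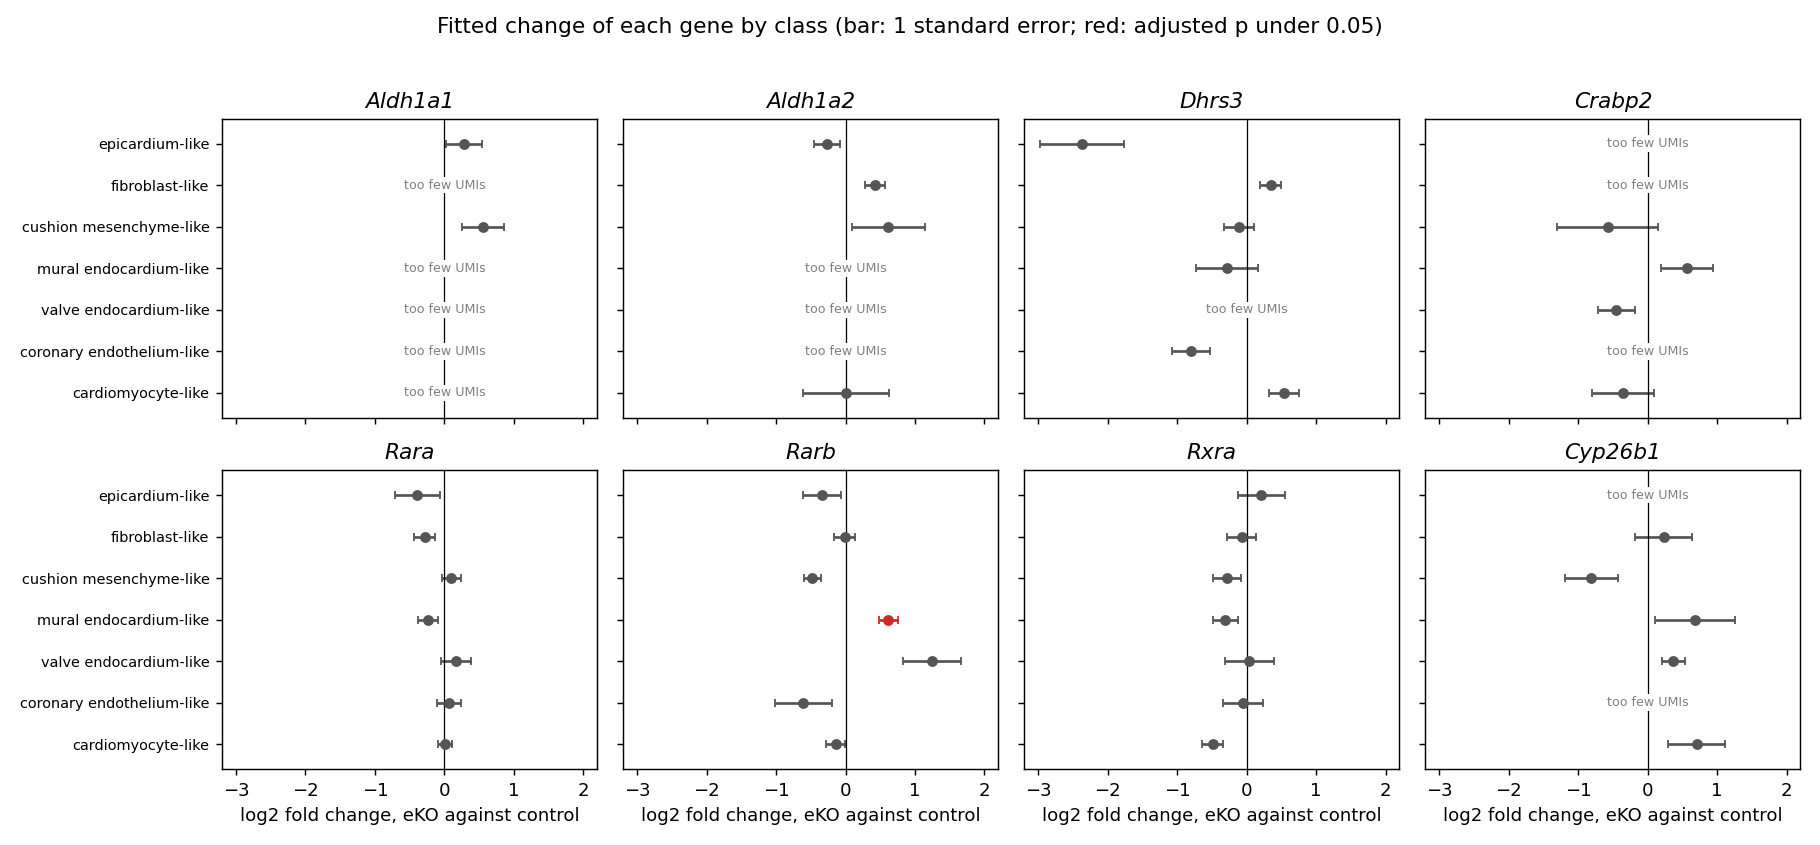
Log2 difference between Ets1 eKO and control with its standard error for each member in each of the 7 tested classes, from edgeR on summed UMIs. Points stand for fits on 2 against 2 libraries, bars for 1 standard error, and "too few UMIs" for a member that did not pass the filter on low counts. The Rarb difference in mural endocardium-like cells (+0.61) was the only one with an adjusted p under 0.05.

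*Cyp26b1*, the hydroxylase that clears retinoic acid, was a gene of the valve endocardium-like cells. Its level there was 88.2, 113, 127 and 126 CPM, apart from the next class, cushion mesenchyme-like cells, at 7.05, 9.74, 2.73 and 6.7 CPM. The other 7 classes had means of at most 3.4 CPM, and the valve class held 69.2% of all *Cyp26b1* UMIs. Within it the 3 clusters were unequal, at 141, 195, 180 and 217 CPM in the highest, 77.5, 79.5, 145 and 123 CPM in the next, and 26.3, 93, 59.8 and 44 CPM in the lowest.

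Thinned to 2000 UMIs, 12.5% (8.71–17.2), 19.2% (14.3–24.9), 18.5% (14–23.6) and 15.9% (12.3–20.1) of valve endocardium-like cells had a *Cyp26b1* UMI, at median depths of 7525, 7778, 6644 and 4078. These intervals overlapped across all 4 libraries. The unthinned shares were 30.2%, 36.9%, 30.8% and 24.8%. In cardiomyocyte-like cells, which should lack the gene, the thinned share was between 0.0188% and 0.116% at median depths of 7921 to 13297. *Crabp2* was found in 8.91% to 19.1% of valve endocardium-like cells with a *Cyp26b1* UMI and in 2.9% to 7.89% of those without, the former being deeper in every library (4267 to 8694 against 3668 to 7091 UMIs).

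The *Cyp26b1* difference in valve endocardium-like cells was +0.37 (SE 0.16, edgeR unadjusted p = 0.039, adjusted p = 0.436), with both *Ets1* eKO libraries above both controls, as in 17.7% of all genes of the class, and it was −0.00699 when cells were gated one by one. In cushion mesenchyme-like cells both *Ets1* eKO libraries were below both controls, by −0.81 (SE 0.38, adjusted p = 0.428), again in a class where 31.3% of all genes were below both controls. In mural endocardium-like cells it rested on 3 to 22 UMIs a library, with +0.68 (SE 0.58, adjusted p = 0.515).

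The wider pathway was read through 46 genes, the 8 members included, from lists of retinol carriers, retinol-oxidizing enzymes, retinal dehydrogenases, binding proteins, hydroxylases, receptors, coregulators and genes known to respond to retinoic acid. In mural endocardium-like cells 29 of the 46 were tested, with a median log2 difference of 0.0332 against −0.000891 over all genes, and 2 were called, *Rarb* and *Ncoa2*, against 5.14% of all genes. An unadjusted p under 0.05 was reached by 9 of the 29, against 23.6% of all genes, and DESeq2 called 1 of them, *Rarb*. *Ncoa2*, a receptor coactivator, stood at 132, 133, 93.2 and 87.9 CPM, a fall of −0.48 on the log2 scale (SE 0.12, edgeR adjusted p = 0.045) that passed in 5 of 11 alternatives, in a class where 2.64% of all genes were called lower. In valve endocardium-like cells 25 were tested and 1 was called, *Nr2f2*, at 95.2, 135, 204 and 252 CPM, a rise of +1.02 (SE 0.19, adjusted p = 0.0379) that passed in 6 of 11 alternatives and was +0.21 with cells gated one by one. Of all genes of that class 0.219% were called higher, and 6 of the 25 had an unadjusted p under 0.05, against 10.6% of all genes. Some marker lists of other cell types also lay apart in the valve class, in both directions. The fibroblast list summed to 102 to 143 CPM in the controls and 193 to 197 in *Ets1* eKO. For the Schwann and neuron list the sums were 179 to 237 and 131 to 136 CPM. The part of these lists in the *Nr2f2* difference was not tested. Of 27 genes tested in epicardium-like, 30 in fibroblast-like, 33 in cushion mesenchyme-like, 27 in coronary endothelium-like and 30 in cardiomyocyte-like cells, edgeR called 0 in each, with 1, 4, 7, 5 and 7 of them at an unadjusted p under 0.05, against 5.9%, 7.43%, 12.3%, 13.9% and 12.3% of all genes. DESeq2 called 0, 0, 0, 2 and 1 of them, against 0%, 0.0237%, 0.905%, 0.646% and 0.286% of genes, the last over 14703 genes.

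Other genes of the pathway had their highest levels in classes already named. *Rdh10*, which makes the first oxidation, was highest in epicardium-like cells (30, 29.5, 34.5 and 45.3 CPM), as was *Dhrs4*, a reductase (173, 142, 164 and 157 CPM). *Crabp1*, a retinoic acid binding protein, was highest in cushion mesenchyme-like cells (46.2, 46.1, 50.1 and 67.6 CPM), and so was the receptor *Rarg* (47.9, 62.5, 47.3 and 51.8 CPM). *Aldh1a3*, *Cyp26c1* and *Stra6* reached a mean of at most 1.94 CPM in any class, and *Cyp26a1* 5.45 CPM in cushion mesenchyme-like cells.

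For 6 members the genes whose pattern was most like it were taken over the 9 class means, as Pearson's r of log2(CPM + 1) among 9961 genes. These are descriptions over points that share libraries. *Smoc2* (r = 0.98), *Zmat4* and *Wdr86* were most like *Aldh1a2*, and *Fmod* (r = 0.99), *Sorcs3* and *Pcdh15* most like *Aldh1a1*. For the receptors these were *Mindy3* (r = 0.94), *Ralgapa2* and *Ints13* for *Rara*, and *Pla2g4a* (r = 0.96), *Xpo6* and *Dennd1a* for *Rxra*. *Ptprr* (r = 0.95), *Fzd10* and *Cldn11* were most like *Cyp26b1*, of which *Cldn11* was in the valve endocardium marker list, and *Nr4a1* (r = 0.94), *Lsp1* and *Slc2a3* most like *Dhrs3*. *Crabp2* was too low in every class to enter.

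In the GRCm38 annotation (GENCODE vM21) the 8 genes lie on separate chromosomes: *Aldh1a1* at chr19:20492715-20643465, *Aldh1a2* at chr9:71215789-71296243, *Rara* at chr11:98927818-98974942, *Rarb* as given, *Rxra* at chr2:27676440-27762957, *Cyp26b1* at chr6:84571414-84593908, *Crabp2* at chr3:87948666-87953376 and *Dhrs3* at chr4:144892827-144928209. *Rarb* and *Cyp26b1* are on the minus strand and the other 6 on the plus strand. *Rarb* overlaps *Top2b* and *Gm48162*, *Aldh1a1* *C730002L08Rik* and *Gm6684*, and *Aldh1a2* *Gm48124*, all on the opposite strand, which the 3′ kit used keeps apart. *Rara* overlaps *Gm22061* on the same strand, so reads of these could not be told apart by strand.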

How the data were processed

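Single-cell suspensions of E14.5 ventricles were profiled with the 10x Genomics Chromium 3′ kit v3.1. Per the labels and the study's methods, the authors mapped reads to mm10 with Cell Ranger 7.1.0 and worked in Seurat 4.3.0 (both from the submitters' processing notes). The deposited values are whole UMI counts per gene and called cell, not normalized. The study's methods name a correction for ambient RNA with CellBender, but whether it came before deposit, and whether intronic reads were counted, is not given in the sources used here. The study's limits on exonic and intronic reads could not be repeated from counts.

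The 8 genes and all lists were chosen with earlier results of these data known. A cell was kept if it had 200 to 7000 genes and if mitochondrial UMIs made up at most 20%, ribosomal 35% and hemoglobin 2% of its total. Simulated doublets (2 per cell, 0.8% expected per 1000 cells) marked 5.79% to 11.1% of cells a library for removal. Cells were clustered on 2000 variable genes and 30 components after integration across libraries (scikit-learn 1.9.0, igraph 0.11.9). A cluster was named when at least 3 markers of a list were detected and its leading genes did not go against it. It stayed unnamed where its cells had few UMIs for their library and no marker was among its leading genes. The largest such cluster held 3023 cells at a median of 1000 UMIs, with 8 cardiomyocyte markers detected. Clusters led more by markers of another list, or by *Eln*, also stayed unnamed. The unnamed clusters held 5762 cells together. A rule that keeps clusters led by *Eln* unnamed and the fall-back to the next list within the mesenchyme were added after the data were seen, as were the test of *Rarb* between mural endocardium-like and cushion mesenchyme-like cells and its values by cluster with and without integration.

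The UMIs of a class were added up within each library and compared by the edgeR 4.0.16 quasi-likelihood test (TMM, filterByExpr, Benjamini-Hochberg over all genes tested, 0.05). Differences between classes were tested by a class by condition term, in a fit that also held terms for library and class. The code was tested on simulated data. The alternatives were scaling by total count, DESeq2 1.42.0, no filter, a replicate block, each library left out, no doublets removed, no integration, and cells gated one by one by the marker lists. All 8 members are named in every class, *Ets1* as a check of the labels, and other pathway genes where called, apart from the enzymes and carriers given by their highest class. Members with too few counts were not tested in the classes named in the text. Some results on single genes are not reported here.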

Additional observations from a re-analysis of the deposited data

Results flagged for a closer look

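The *Ets1* eKO change of *Rarb* in mural endocardium-like cells was higher than that in cushion mesenchyme-like cells by 1.13 on the log2 scale (edgeR adjusted p = 0.000108), by a test of the difference itself that was added after both directions had been seen. The change of *Nr2f2* in mural endocardium-like cells was lower than that in valve endocardium-like cells by a difference of −1.26 (edgeR adjusted p = 0.000232), with 370, 314, 286 and 271 CPM in the former and 95.2, 135, 204 and 252 CPM in the latter. With cells gated one by one that difference was −0.39 and did not pass (adjusted p = 0.309). The change of *Fabp5*, a fatty acid binding protein that can also carry retinoic acid, differed by −0.497 between mural endocardium-like and coronary endothelium-like cells (edgeR adjusted p = 0.00271), with 6379, 5583, 6320 and 7346 CPM in the former and 3282, 3288, 4898 and 5708 CPM in the latter, and passed in 7 of 10 alternatives. It did not pass with no doublets removed (−0.26, edgeR adjusted p = 0.519), where the coronary class held 2368 cells in place of 1471. Without *Ets1* eKO replicate 1 or 2 the *Fabp5* difference was −0.52 and −0.51 and did not pass. In the comparison of mural endocardium-like with cushion mesenchyme-like cells, the *Meis1* change was also higher in the former, by 0.744 (edgeR adjusted p = 0.0123), which passed in 9 of 10 alternatives, not with DESeq2 (adjusted p = 0.205), and was 0.43 without control replicate 2. The *Nr2f2* change was lower there, at −0.807 (edgeR adjusted p = 0.0169), which passed in 8 of 10, not with DESeq2 (adjusted p = 0.0735) or without *Ets1* eKO replicate 2 (−0.51, adjusted p = 0.317).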

How the results depend on the processing

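Of 47 differences of the members, 28 kept their direction in every alternative and 19 turned in at least 1, and members other than *Rarb* passed the threshold in 14 of the fits. With DESeq2 the number of genes called was 0 in epicardium-like cells (3 with edgeR), 3 in fibroblast-like (0), 122 in cushion mesenchyme-like (50) and 42 in cardiomyocyte-like cells (0), and 75, 59 and 0 for the mural–valve, mural–coronary and epicardium–fibroblast differences of change (268, 313 and 10). With no filter on low counts it was 54, 141, 643, 1429, 290, 404 and 373 in epicardium-like, fibroblast-like, cushion mesenchyme-like, mural endocardium-like, valve endocardium-like, coronary endothelium-like and cardiomyocyte-like cells, and 486 and 49 for the mural–valve and epicardium–fibroblast differences. With replicate number as a block (a replicate block) it was 39, 85, 83, 1415, 108, 308 and 18 in the same 7 classes. The labels do not say that equal numbers mark a shared origin, and deviations of same-numbered libraries correlated between −0.167 and 0.011 over genes. With 2 libraries a group, such a correlation cannot tell whether the numbers pair the samples. The *Rarb* difference in mural endocardium-like cells had an adjusted p of 0.0024 under the replicate block. Total count scaling, under which the median of all genes lay between −0.0182 and −0.104 (between −0.000891 and 0.0158 with TMM), gave 140 calls in coronary endothelium-like and 1 in cardiomyocyte-like cells. With no doublets removed there were 21 in valve endocardium-like and 4 in coronary endothelium-like cells and 18 for mural–coronary, with the coronary class enlarged to 2368 cells. With cells gated one by one there were 0 in epicardium-like, 4 in fibroblast-like, 403 in mural endocardium-like, 92 in valve endocardium-like, 143 in coronary endothelium-like and 1 in cardiomyocyte-like cells, and 60 and 205 for mural–valve and mural–coronary. Without 1 library at a time the counts ran from 27 to 79, 2 to 52, 4 to 421, 322 to 1518, 21 to 59, 32 to 1001 and 5 to 1792 in the 7 classes, and from 200 to 483, 65 to 567 and 17 to 125 for mural–valve, mural–coronary and epicardium–fibroblast; the cause was not tested.

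Directions that turned belonged to differences that were not called. With cells gated one by one these were 0.00621 for *Rxra* and 0.127 for *Dhrs3* in cushion mesenchyme-like cells, −0.00699 for *Cyp26b1* in valve endocardium-like cells, and −0.0599 for *Rara*, 0.49 for *Rarb* and 0.0378 for *Rxra* in coronary endothelium-like cells. With no doublets removed they were 0.00526 for *Rarb* in fibroblast-like, −0.00624 for *Cyp26b1* in mural endocardium-like, 0.31 for *Rarb* in coronary endothelium-like and −0.00135 for *Rara* in cardiomyocyte-like cells. With no integration they were −0.0726 for *Aldh1a2* and −0.0213 for *Rara* in cardiomyocyte-like cells. With total count scaling they were −0.0185 for *Rara* in coronary endothelium-like cells, and −0.11 for both *Aldh1a2* and *Rara* in cardiomyocyte-like cells. Without 1 library at a time they ran, in cardiomyocyte-like cells, from −0.58 to 0.74 for *Aldh1a2*, −0.82 to 0.019 for *Crabp2*, −0.0239 to 0.0435 for *Rara* and −0.31 to 0.0387 for *Rarb*. In cushion mesenchyme-like cells they ran from −1.90 to 0.23 for *Crabp2* and −0.32 to 0.0626 for *Dhrs3*, and in fibroblast-like cells from −0.21 to 0.74 for *Cyp26b1*, −0.16 to 0.15 for *Rarb* and −0.14 to 0.0263 for *Rxra*. The ranges were −0.60 to 0.31 for *Dhrs3* in mural endocardium-like cells, −0.80 to 0.31 for *Rarb* in epicardium-like cells, −0.0897 to 0.29 for *Rara* and −0.28 to 0.14 for *Rxra* in coronary endothelium-like cells, and −0.060 to 0.35 for *Rara* and −0.13 to 0.17 for *Rxra* in valve endocardium-like cells. Low counts limit what *Crabp2* and *Cyp26b1* can show outside their highest classes, where a library held 22 UMIs or fewer of *Cyp26b1* in mural endocardium-like cells. The same held for *Aldh1a1* outside epicardium-like and cushion mesenchyme-like cells.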

Other observations

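A set of 352 cells in the mesenchyme was led by *Eln*, which encodes elastin, and was left unnamed for that reason, by the rule added after the data were seen. It held 57, 196, 41 and 58 cells of the 4 libraries, so most came from control replicate 2. *Dhrs3* stood there at 47.9, 71.8, 16.5 and 21.8 CPM, *Rarb* at 83.8, 103, 66 and 70.9 CPM, and *Crabp2* at 14.4, 14.8, 4.12 and 0 CPM, the last from 6, 22, 1 and 0 UMIs. *Eln* itself stood at 5260, 6981, 577 and 987 CPM, so the cells of the 2 groups were unlike in the gene that leads the set, and no comparison was made between them. *Crabp2* in both control libraries was within the range of levels seen in valve endocardium-like cells.

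In epicardium-like cells *Rarb* was also highest in control replicate 2, the library that set the *Dhrs3* level there, with 98 UMIs in 54 of 139 cells against 51 in 36 of 161, 109 in 63 of 286 and 64 in 57 of 335.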
